A study of Homo sapiens with 12 samples.

Results

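The genes described here encode the proteins of the mitochondrial ribosome that carry MRPL or MRPS symbols. They were chosen by symbol alone: every row of the count table whose symbol was MRPL or MRPS, a number and at most 1 of the letters A to C. The rule found 76 of the 20114 symbols in the table, 47 with MRPL and 29 with MRPS symbols. Of these, 74 had enough reads to be tested, and MRPL30 and MRPS24 did not.

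The mitochondrial ribosome, or mitoribosome, translates the few proteins that mitochondrial DNA still encodes, all of them subunits of the respiratory chain and the ATP synthase. Its RNAs come from mitochondrial DNA, while all of its proteins are encoded in the nucleus, made in the cytosol and imported. Many of these proteins have a bacterial counterpart and others are particular to mitochondria. Symbols do not always give the place of a protein: MRPS18A and MRPS30 sit in the large subunit, and MRPS36 belongs to an enzyme complex of the citric acid cycle and not to the ribosome.

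T47D is an established human breast carcinoma line that carries the progesterone receptor. The cells of every group were kept in medium with charcoal-stripped serum and starved of serum before treatment, so vehicle cells were starved too. They then received vehicle, 100 pM progestin or 10 nM progestin, a ligand of the progesterone receptor whose identity the labels do not give, and total RNA was taken at 6 h or 18 h. Each of the 6 groups had 2 libraries, numbered replicate 1 and replicate 3, with 34204970 to 41373890 counted reads a library. Nothing in the labels says that replicates came from separate cultures, so p-values measure the spread between these libraries, which may be technical. Same-numbered libraries deviated together from their group means in all 15 pairs of groups (r of 0.464 to 0.677). The main fit leaves this shared difference in its spread. Counts from a fit with a block on replicate number differ and are given with the other alternatives below. The 9 luminal breast epithelial markers examined were detected in every library. Their summed level was 7008 to 7038 CPM (reads scaled to library size, with TMM as edgeR's correction) with 10 nM and 11701 to 11773 CPM with vehicle at 6 h. At 18 h it was 5332 to 5423 CPM with 10 nM and 11141 to 11803 CPM with vehicle, and 7 of the 9 markers were called lower at each time. Summed markers of fibroblasts stayed at or below 119.7 CPM most of it COL1A1, those of immune cells at or below 5.53 CPM, of endothelium at or below 0.927 CPM and of basal epithelium at or below 9.04 CPM, with PTPRC, CD3E, CDH5 and KDR at 0 in some groups. Basal markers were at 5.88 and 9.04 CPM with 10 nM and at 1.46 and 2.13 CPM with vehicle at 18 h. The part of these marker levels in the results was not tested. Reads from mitochondrial DNA made up 6.69% to 10.8% of a library and were higher in replicate 3 than in replicate 1 of every group.

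At 6 h, 10 nM progestin raised a large share of the mitoribosomal protein genes and lowered none that the test called. Calls are an adjusted p under 0.05 in edgeR's quasi-likelihood test, adjusted by Benjamini-Hochberg over the 13872 genes tested, with no threshold on fold. Against vehicle, 30 of the 74 genes (40.5%) rose and 0 fell, beside 22.6% of all genes tested called higher and 19.4% called lower. The unadjusted p was under 0.05 for 37 of the 74, and DESeq2 called 34 higher and 0 lower. Their median log2 fold change was 0.26, with 65 of 74 above 0, beside a median of -0.02 for all genes. In bulk RNA, fewer cells of a kind and less RNA per cell cannot be told apart. In each of these 30 genes both 10 nM libraries lay above both vehicle libraries. The genes were chosen by the test on these same libraries, so this separation adds no support. The same holds wherever the libraries of called genes are described below as separate.

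**Figure D1:**
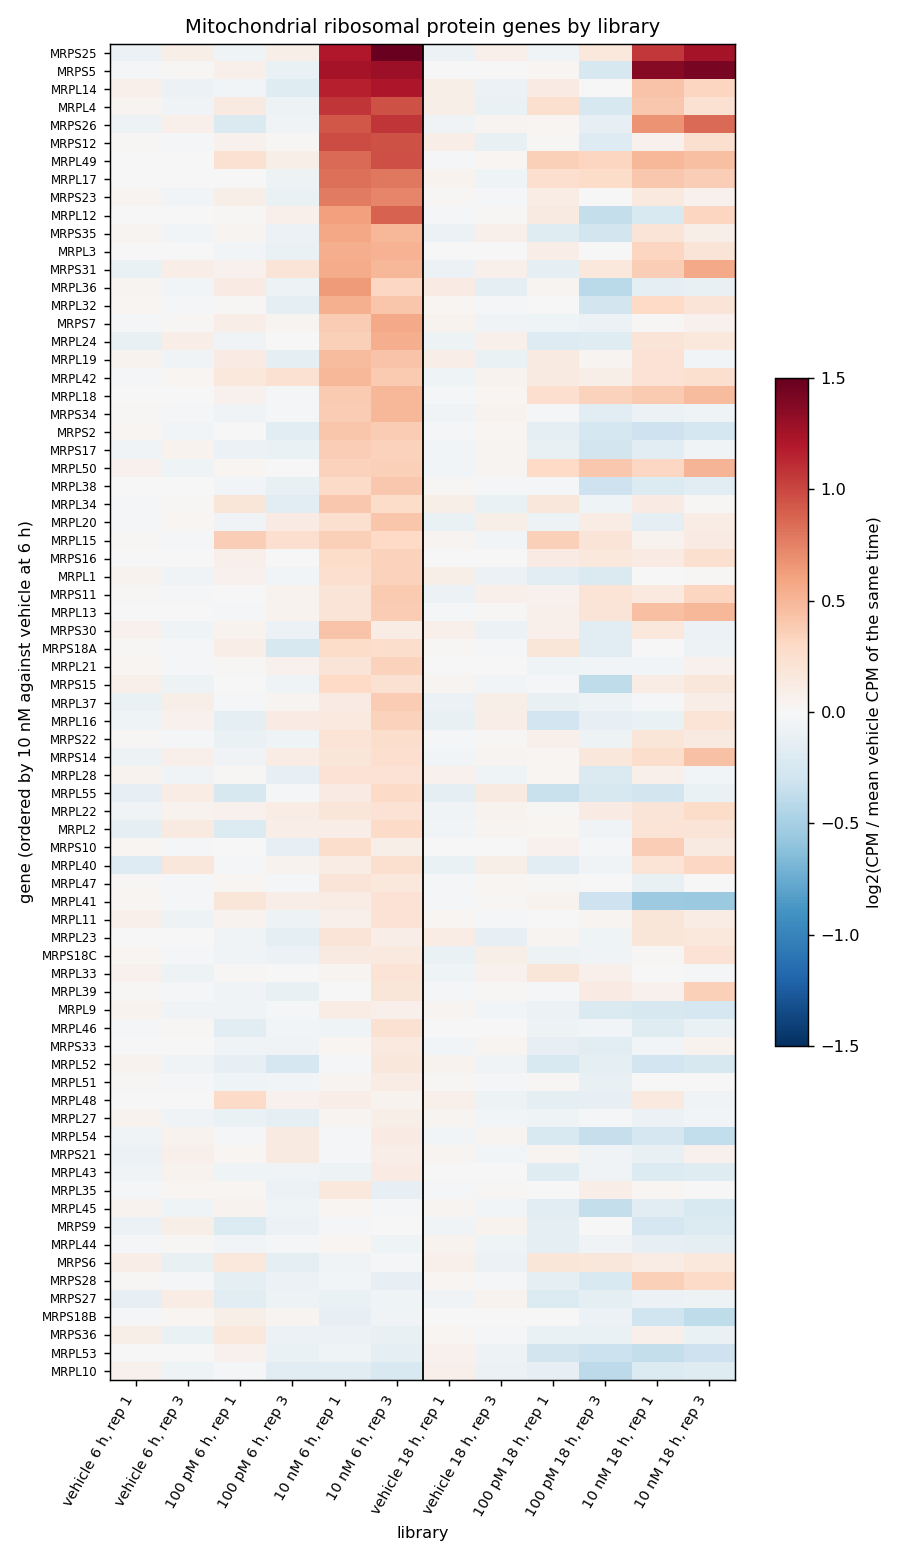
Level of each of the 74 tested genes in each of the 12 libraries, as the log2 ratio of its CPM to the mean vehicle CPM of the same time, with genes in rows ordered by the 10 nM response at 6 h and libraries in columns by time and dose. The red block at the top of the 10 nM 6 h columns narrows in the 10 nM 18 h columns, where MRPS25, MRPS5 and MRPS26 stay red and MRPL41 is blue.

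MRPS25, a small-subunit protein with no bacterial counterpart, had the largest fold change at 6 h. It stood at 171 and 208 CPM with 10 nM and at 69.7 and 78.8 CPM with vehicle (log2 fold change 1.35 ± 0.14 SE, adjusted p = 9.3e-05). MRPS5, the counterpart of a bacterial protein near the decoding site, stood at 67.2 and 68.8 CPM with 10 nM and at 28.1 and 28.6 CPM with vehicle (1.26 ± 0.10, adjusted p = 2.7e-05). In both genes the 10 nM libraries lay above the vehicle libraries, as in every member called in this comparison.

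MRPL14, a large-subunit protein at the face that meets the small subunit, was at 59.1 and 61.2 CPM with 10 nM and at 27.8 and 24.8 CPM with vehicle (log2 fold change 1.19 ± 0.10 SE, adjusted p = 4.2e-05). MRPL4, which lines the tunnel through which the new protein leaves, was at 67.7 and 62.7 CPM with 10 nM and at 33.3 and 31.2 CPM with vehicle (1.01 ± 0.16, adjusted p = 0.001). MRPS26, another small-subunit protein particular to mitochondria, was at 59.1 and 65.5 CPM with 10 nM and at 29.4 and 32.8 CPM with vehicle (1.002 ± 0.11, adjusted p = 0.00016). These 5 genes were the members that passed 2-fold at 6 h.

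MRPS12 is the counterpart of the bacterial protein S12 of the decoding centre. It was at 33.5 and 32.8 CPM with 10 nM and at 17.1 and 16.8 CPM with vehicle, a log2 fold change of 0.96 ± 0.11 (SE, adjusted p = 0.00022). MRPL49, a large-subunit protein particular to mitochondria, reached 187 and 203 CPM with 10 nM, against 103 and 105 CPM with vehicle (0.91 ± 0.08). MRPL17, with a bacterial counterpart at the large subunit's exit side, reached 38.8 and 38.1 CPM with 10 nM, against 22.2 and 21.8 CPM with vehicle (0.81 ± 0.08). Replicates of each of these genes lay close together beside the gap between groups. MRPS23, of the small subunit, stood at 59.95 and 58.3 CPM with 10 nM and at 35.9 and 34.1 CPM with vehicle (0.75 ± 0.09). The remaining called genes apart from MRPL12 rose by 0.24 to 0.54 on the log2 scale.

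MRPL12, the protein of the flexible stalk that recruits translation factors, was the least abundant member that could be tested. It had 144 and 170 reads (3.99 and 4.80 CPM) with 10 nM and 103 and 101 reads (2.62 and 2.59 CPM) with vehicle at 6 h. The log2 fold change was 0.75 ± 0.24 (SE, adjusted p = 0.033), and the call was lost when any 1 of the 4 libraries was left out, with adjusted p of 0.056 to 0.15. In the reference annotation 68.2% of its exon bases are shared, on the same strand, with another protein-coding gene that has no row in the table, and the sources used here do not say how shared reads were counted.

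The 10 nM response at 6 h was found in both subunits. Of genes with MRPL symbols, 17 of 46 tested (37.0%) rose, and of genes with MRPS symbols, 13 of 28 (46.4%), beside 22.6% of all genes tested. Of members with a bacterial counterpart, 19 of 46 (41.3%) rose (median log2 fold change 0.27), and of ribosomal members without one, 11 of 27 (40.7%, median 0.18). The same 22.6% of all genes stands beside these shares. The difference between these classes was not tested. The members that sit outside the small subunit despite their symbols did not pass the test: MRPS18A had a log2 fold change of 0.27 ± 0.14 (SE, adjusted p = 0.14), MRPS30 of 0.28 ± 0.14 (adjusted p = 0.16) and MRPS36 of -0.09 ± 0.12 (adjusted p = 0.55). MRPS18B and MRPS18C, the small-subunit relatives of MRPS18A, were at -0.09 ± 0.07 and 0.14 ± 0.12. Among members at the tunnel exit, MRPL45, which ties the ribosome to the inner membrane, was at 0.00 ± 0.09 and MRPL23 at 0.15 ± 0.10, neither of them called. MRPS6 was at -0.04 ± 0.12, and 17.8% of its exon bases are shared with SLC5A3 on the same strand.

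Summed over all 76 members, the level at 6 h was 3528 and 3655 CPM with 10 nM and 2757 and 2775 CPM with vehicle, a ratio of 1.30. The libraries did not overlap, and the exact two-sided permutation p of 0.333 is the smallest that 2 against 2 can give. MRPL symbols contributed 2071 and 2138 CPM with 10 nM and 1675 and 1673 CPM with vehicle, and MRPS symbols 1457 and 1517 CPM with 10 nM and 1082 and 1102 CPM with vehicle. Part of the ratio comes from TMM scaling, with factors of 0.947 and 0.933 for 10 nM and 1.03 and 1.04 for vehicle. Without that scaling the members made up 0.334% and 0.341% of counted reads with 10 nM and 0.285% and 0.288% with vehicle.

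Promoters of 67 members were found in the RefSeq table (build GRCh38.p14; 250 bases before to 50 bases after the gene's start). Shown are 4 of the strongly raised members, picked because this window held letters that were searched for. The letters searched, on both strands, were CACGTG (the E-box bound by MYC), CCGGAAG (an ETS core bound by GABPA), AAGATGG (part of the YY1 site) and GCGCATG (part of the NRF1 site). Capitals mark these letters, 5′ to 3′ on the gene's strand. The windows are chr19:38930694-38930993 (plus strand), chr11:6683291-6683590 (minus strand), chr11:65121933-65122232 (plus strand) and chr20:3045802-3046101 (plus strand).
MRPS12: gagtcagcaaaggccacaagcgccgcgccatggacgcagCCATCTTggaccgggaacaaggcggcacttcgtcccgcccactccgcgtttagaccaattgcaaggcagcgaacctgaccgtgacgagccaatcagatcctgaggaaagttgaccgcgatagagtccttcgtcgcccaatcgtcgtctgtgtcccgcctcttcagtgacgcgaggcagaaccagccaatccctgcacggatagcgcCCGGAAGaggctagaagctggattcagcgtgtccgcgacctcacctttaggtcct
MRPL17: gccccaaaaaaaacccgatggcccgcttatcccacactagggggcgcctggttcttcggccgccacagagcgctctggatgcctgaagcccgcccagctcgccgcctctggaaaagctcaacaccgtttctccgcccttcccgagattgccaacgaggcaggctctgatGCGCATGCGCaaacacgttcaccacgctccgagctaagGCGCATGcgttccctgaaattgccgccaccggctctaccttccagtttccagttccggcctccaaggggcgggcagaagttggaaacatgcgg
MRPL49: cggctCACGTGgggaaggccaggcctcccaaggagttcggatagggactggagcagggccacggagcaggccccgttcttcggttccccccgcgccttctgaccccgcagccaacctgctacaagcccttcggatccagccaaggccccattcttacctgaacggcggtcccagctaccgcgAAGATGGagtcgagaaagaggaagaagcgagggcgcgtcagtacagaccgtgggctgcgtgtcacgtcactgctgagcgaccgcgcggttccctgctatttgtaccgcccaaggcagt
MRPS26: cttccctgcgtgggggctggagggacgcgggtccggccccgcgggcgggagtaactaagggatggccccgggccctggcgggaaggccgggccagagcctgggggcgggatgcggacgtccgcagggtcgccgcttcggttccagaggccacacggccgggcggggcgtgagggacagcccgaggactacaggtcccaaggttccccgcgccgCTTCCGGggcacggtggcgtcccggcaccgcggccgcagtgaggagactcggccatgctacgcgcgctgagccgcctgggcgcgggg

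In MRPS12 the ETS letters began 5 bases before the start and the YY1 letters, on the other strand, 211 bases before it. In MRPL17 the NRF1 letters occurred on both strands in 1 run of overlapping matches and once more nearer the start. MRPL49 held an E-box 245 bases and the YY1 letters 68 bases before the start, and MRPS26 the ETS letters 37 bases before it. The windows of MRPS25, MRPS5, MRPL14 and MRPL4 held none of the 4 sets of letters.

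Over the 67 windows, ETS letters were in 41.8% and YY1 letters in 34.3% of mitoribosomal protein genes, beside 18.3% and 7.38% of 10340 windows of tested genes. NRF1 letters were in 10.4%, beside 7.28%, and E-boxes in 8.96%, beside 9.91%. Among the 27 windows of members raised at 6 h the shares were 33.3% for ETS, 29.6% for YY1, 11.1% for NRF1 and 3.70% for E-boxes. Among the 38 windows of other tested members they were 47.4% for ETS, 36.8% for YY1, 10.5% for NRF1 and 13.2% for E-boxes. A match describes the sequence and does not show that a factor binds there.

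At 100 pM, the lower dose, the mitoribosomal protein genes had a median close to vehicle. At 6 h edgeR called 0 of 74, beside 2.88% of all genes called higher and 0.606% called lower, with 2 of the 74 at an unadjusted p under 0.05 and a median log2 fold change of -0.01. DESeq2 called 1, MRPL15, the member with the highest level per kilobase of transcript (73.2 CPM per kb over all libraries, beside 3.07 for MRPL12). MRPL15 stood at 73.5 and 71.8 CPM with vehicle, 93.5 and 86.4 CPM with 100 pM and 93.3 and 89.3 CPM with 10 nM at 6 h. Both doses lay above vehicle and overlapped each other. Its log2 fold change with 100 pM was 0.31 ± 0.08 (SE), with an adjusted p of 0.094 in edgeR.

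MRPS25 and MRPS5, the members with the largest 10 nM response at 6 h, are set beside it. At 6 h MRPS25 was at 69.7 and 78.8 CPM with vehicle, 71.0 and 79.1 CPM with 100 pM and 171 and 208 CPM with 10 nM. MRPS5 was at 28.1 and 28.6 CPM with vehicle, 29.8 and 26.5 CPM with 100 pM and 67.2 and 68.8 CPM with 10 nM. In both, vehicle and 100 pM overlapped and 10 nM stood above them. Tested directly, 10 nM against 100 pM at 6 h raised 26 of the 74 and lowered 0, beside 20.1% and 16.8% of all genes, with a median log2 difference of 0.26. MRPL14 had a log2 difference of 1.30 ± 0.10 (SE, adjusted p = 3.9e-05) and MRPS26 of 1.13 ± 0.11 (adjusted p = 0.00011) between the doses. Summed over the members, 100 pM gave 2815 and 2737 CPM at 6 h, and 2763 and 2644 CPM at 18 h.

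**Figure D2:**
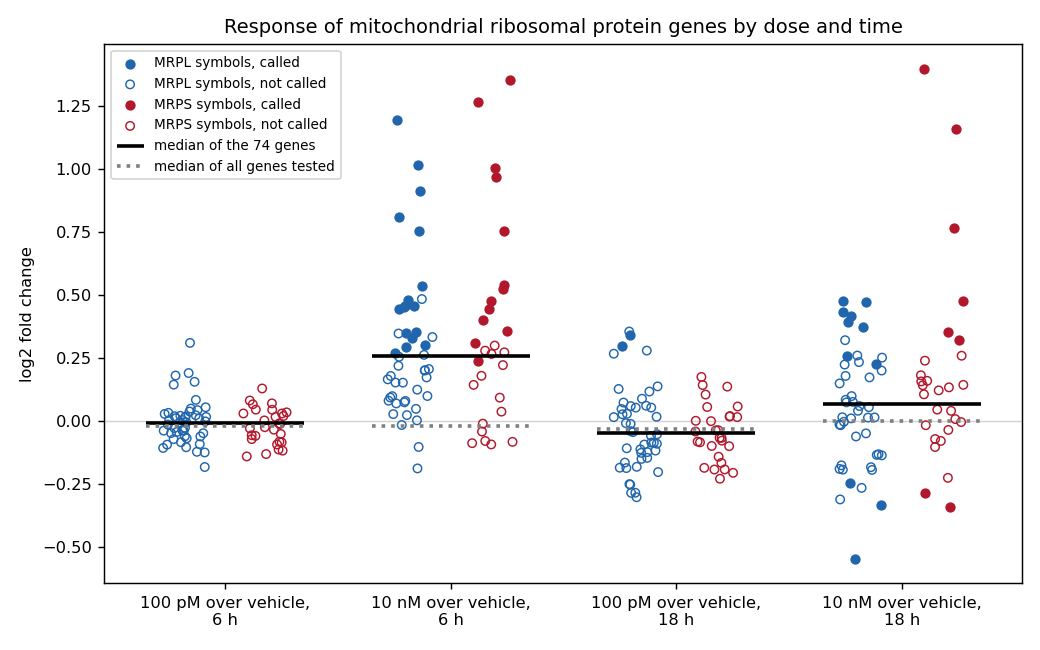
Log2 fold change over vehicle of each of the 74 tested genes (points; filled where called by edgeR) by dose and time, with MRPL and MRPS symbols apart, the median of the 74 as a solid bar and the median of all genes tested as a dotted bar. At 6 h the medians are -0.01 for 100 pM and 0.26 for 10 nM, and at 18 h they are -0.05 and 0.07.

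At 18 h with 100 pM, edgeR called 2 of 74 higher and 0 lower, beside 6.57% and 3.89% of all genes. MRPL49 stood at 96.2 and 99.5 CPM with vehicle, 126 and 122 CPM with 100 pM and 138 and 134 CPM with 10 nM. Its 3 dose groups did not overlap, and its log2 fold change with 100 pM was 0.34 ± 0.08 (SE, adjusted p = 0.025). MRPL18, a large-subunit protein with a bacterial counterpart, stood at 33.1 and 34.4 CPM with vehicle, 40.04 and 42.7 CPM with 100 pM and 44.2 and 46.9 CPM with 10 nM (0.29 ± 0.08 for 100 pM, adjusted p = 0.046). Both calls were lost when any 1 of the 4 libraries was left out, with 0 members then called. DESeq2 called 5 members higher at 100 pM and 18 h, MRPL50, MRPL15 and MRPL17 besides these.

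At 18 h the 10 nM response had a lower median than at 6 h and included falls. Against vehicle at 18 h, 14 of 74 genes (18.9%) rose and 5 (6.76%) fell, beside 19% and 15.2% of all genes tested, so the share that rose was at the background. The median log2 fold change was 0.07 and near 0 for all genes. Leaving out any 1 of the 4 libraries left 10 to 12 of the 74 called. The sum over members was 2970 and 3014 CPM with 10 nM and 2724 and 2741 CPM with vehicle (ratio 1.10; exact permutation p = 0.333, the smallest possible). Without TMM scaling the members made up 0.289% and 0.297% of counted reads with 10 nM and 0.280% and 0.285% with vehicle.

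MRPS5, MRPS25 and MRPS26, all raised at 6 h, rose most at 18 h too. MRPS5 stood at 75.2 and 78.1 CPM with 10 nM and at 29.2 and 28.97 CPM with vehicle (log2 fold change 1.40 ± 0.10 SE, adjusted p = 2.2e-05). MRPS25 stood at 144 and 164 CPM with 10 nM and at 65.04 and 72.9 CPM with vehicle (1.16 ± 0.13, adjusted p = 0.00026). Both passed 2-fold with no overlap of groups. MRPS26 was at 49.2 and 55.8 CPM with 10 nM and at 29.9 and 31.9 CPM with vehicle (0.77 ± 0.11, adjusted p = 0.00084). MRPL49 was higher by 0.47 ± 0.08, MRPL13 by 0.47 ± 0.08, MRPL18 by 0.43 ± 0.08 and MRPL17 by 0.39 ± 0.08 on the log2 scale. MRPS31, at 0.47 ± 0.14 (adjusted p = 0.032), and MRPL50, at 0.41 ± 0.11 (adjusted p = 0.017), rose too, but each lost its call when either vehicle library or 10 nM replicate 3 was left out, with adjusted p of 0.067 to 0.20 for MRPS31 and 0.054 to 0.13 for MRPL50.

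MRPL41, a large-subunit protein particular to mitochondria, fell most at 18 h. It stood at 58.8 and 58.1 CPM with 10 nM and at 84.6 and 86.4 CPM with vehicle (log2 fold change -0.55 ± 0.11 SE, adjusted p = 0.0054). MRPS18B stood at 61.9 and 58.7 CPM with 10 nM and at 76.6 and 76.0 CPM with vehicle (-0.34 ± 0.07, adjusted p = 0.0055). In both genes all 4 libraries were separated by group, as in every member called in this comparison. The other falls were those of MRPL53 (-0.33 ± 0.09, adjusted p = 0.024), MRPS2 (-0.29 ± 0.08, adjusted p = 0.027) and MRPL9 (-0.25 ± 0.07, adjusted p = 0.033). MRPS2 and MRPL9 each lost the call without any 1 of their 4 libraries, and MRPL53 without any 1 but vehicle replicate 3, with adjusted p of 0.052 to 0.18 over the 3 genes.

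**Figure D3:**
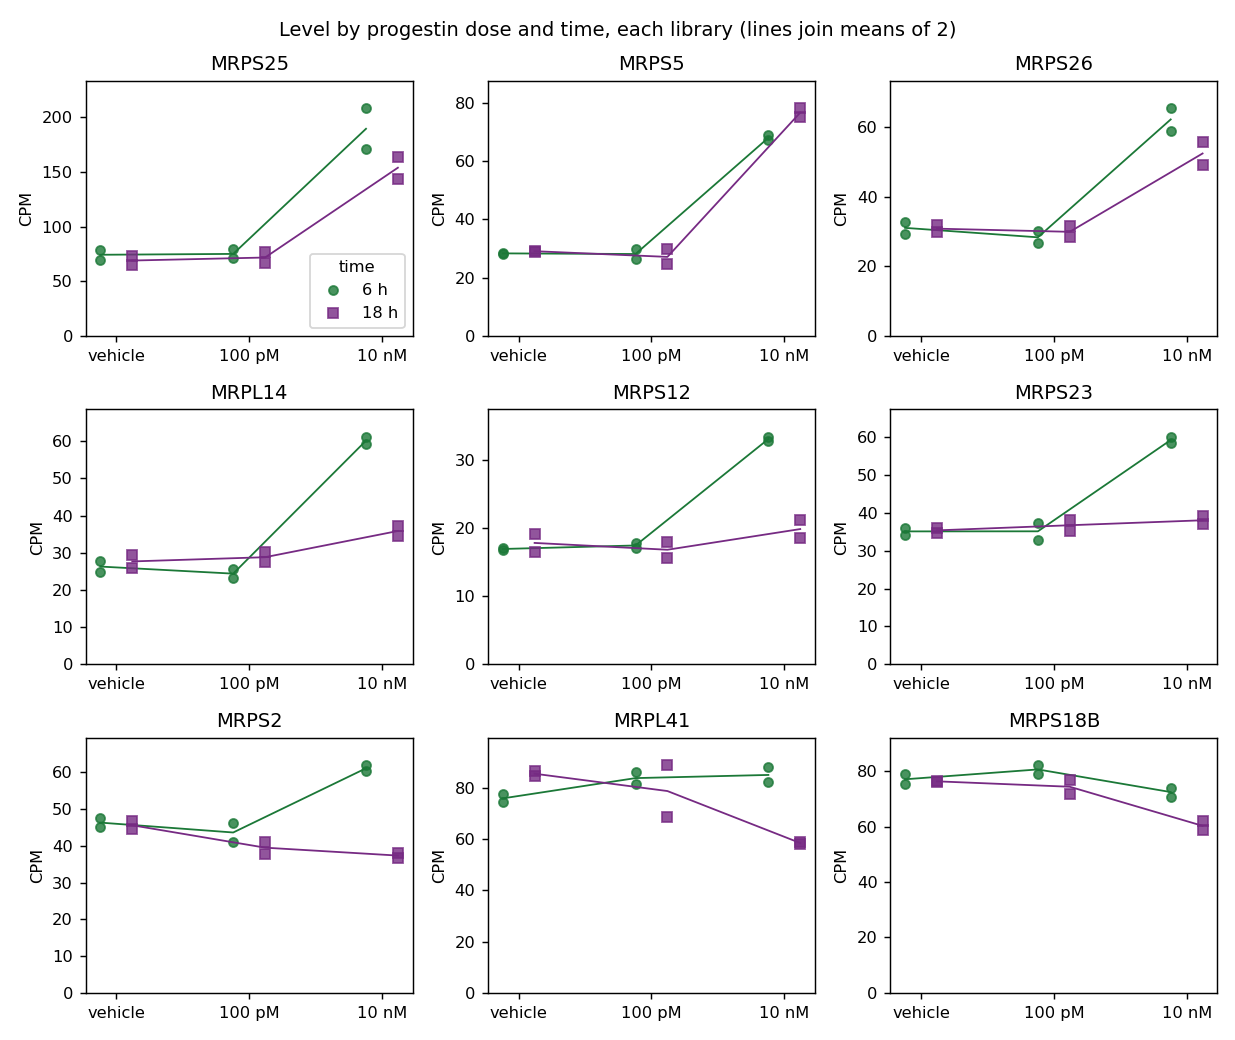
CPM of 9 members in each library against dose, with 6 h as circles and 18 h as squares and lines through the means of 2 libraries. MRPS25, MRPS5 and MRPS26 are high with 10 nM at both times, MRPL14, MRPS12 and MRPS23 mainly at 6 h, and MRPL41 and MRPS18B are lowest with 10 nM at 18 h.

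Between the doses at 18 h, 10 nM was higher than 100 pM for 9 of 74 genes and lower for 2, beside 14.8% and 11.4% of all genes. MRPS5 differed by 1.498 ± 0.10 (log2, SE), MRPS25 by 1.10 ± 0.13 and MRPS26 by 0.81 ± 0.11. MRPS28, not called against vehicle at 6 h, stood at 8.22 and 7.88 CPM with vehicle, 7.24 and 6.90 CPM with 100 pM and 10.3 and 9.83 CPM with 10 nM at 18 h (0.51 ± 0.11 between the doses, adjusted p = 0.0087). Its 10 nM libraries stood above the rest. MRPS31, MRPL32, MRPS35 and MRPL24 were higher with 10 nM by 0.36 to 0.46. Without 10 nM replicate 1 these 4 genes and MRPS28 were not called (adjusted p of 0.053 to 0.17). Without 100 pM replicate 3 MRPL32 was at 0.24 (adjusted p = 0.21), and MRPS28, MRPS35 and MRPL24 were not called either. MRPS31 was not called without 100 pM replicate 1 (adjusted p = 0.21) or 10 nM replicate 3 (adjusted p = 0.25), with DESeq2 size factors (0.059), without the mitochondrially encoded genes (0.052) or with no filter on low counts (0.080). MRPL32 was also not called without 10 nM replicate 3, and MRPL24 without any 1 of the 4 libraries. With no filter MRPL32 (adjusted p = 0.054) and MRPL24 (adjusted p = 0.05044) were not called. MRPL41 (-0.43 ± 0.11) and MRPS18B (-0.30 ± 0.07) were lower with 10 nM. Without 100 pM replicate 1 they were at -0.23 and -0.25 and not called (adjusted p = 0.10 and 0.073), and MRPL41 was not called without either 10 nM library. Leaving out any 1 library left 4 to 8 of the 74 called.

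Comparing the times within a dose, 25 of 74 genes were lower at 18 h than at 6 h with 10 nM and 0 were higher, beside 13.1% and 11.4% of all genes, with a median log2 difference of -0.21. Without any 1 of the 4 libraries 13 to 15 were called. MRPL14 was at 37.2 and 34.6 CPM at 18 h and at 59.1 and 61.2 CPM at 6 h (-0.75 ± 0.10 SE, adjusted p = 0.0016). MRPS12 was at 18.6 and 21.2 CPM at 18 h and at 33.5 and 32.8 CPM at 6 h (-0.74 ± 0.11, adjusted p = 0.0025). MRPS2, the counterpart of bacterial S2, was at 36.7 and 38.0 CPM at 18 h and at 61.9 and 60.3 CPM at 6 h (-0.71 ± 0.08, adjusted p = 0.00086). In these genes the libraries of the 2 times did not overlap. MRPS23 fell by 0.64 and MRPL4 by 0.60 on the log2 scale, the second no longer called when any 1 of the 4 libraries was left out (adjusted p of 0.054 to 0.12). In vehicle edgeR and DESeq2 each called 0 of 74 between the times, with 1 at an unadjusted p under 0.05 in edgeR, and 0% of all genes were called. In 100 pM edgeR called 0 of 74, with 8 at an unadjusted p under 0.05, beside 0.526% of all genes called higher and 0.656% called lower, and DESeq2 called 1 higher, MRPL17.

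The change of the 10 nM response from 6 h to 18 h was tested as the difference of the 2 fold changes. It was negative and called for 10 of the 74 genes and positive for 0, beside 5.99% and 4.55% of all genes tested, with a median of -0.22 over the 74. MRPL14 (-0.82 ± 0.15 SE, adjusted p = 0.012) and MRPS12 (-0.81 ± 0.16, adjusted p = 0.018) changed most. MRPL41 (-0.71 ± 0.16), MRPS2 (-0.69 ± 0.12) and MRPS23 (-0.65 ± 0.12) followed. The count fell to 0 without vehicle 6 h replicate 3 and to at most 4 without any other 1 library. For the 100 pM response edgeR and DESeq2 called 0 of 74 such differences, with 2 at an unadjusted p under 0.05 in edgeR, beside 0.0144% of all genes.

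**Figure D4:**
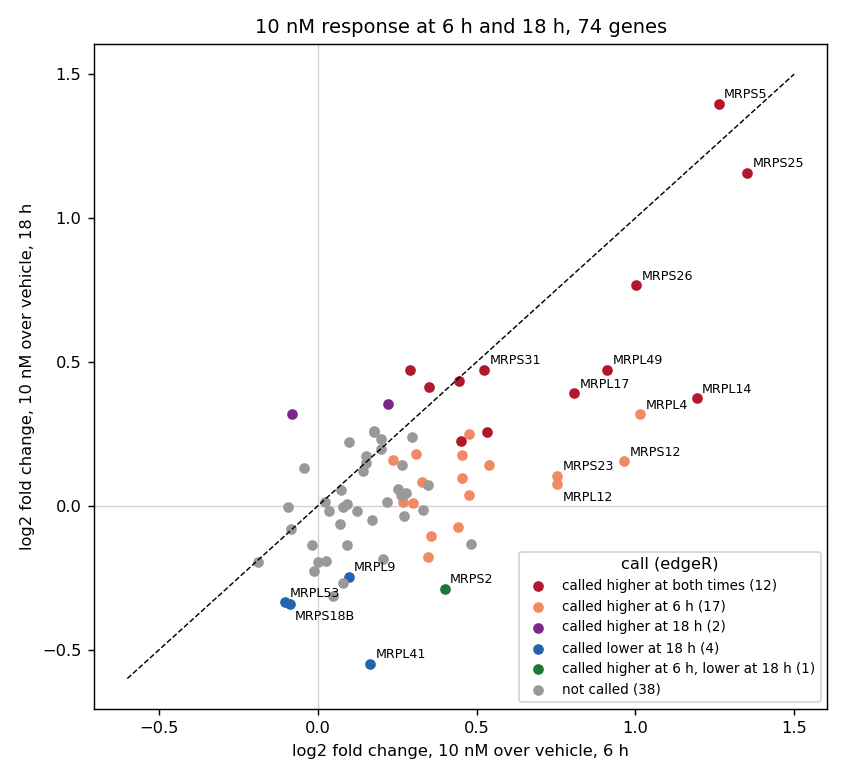
Log2 fold change of 10 nM over vehicle at 6 h (x axis) against 18 h (y axis) for the 74 tested genes, coloured by their calls, with the line of equal response dashed. MRPS5 lies above the line, MRPS25 and MRPS26 somewhat below it, MRPL14, MRPS12 and MRPS23 far below it, and MRPL41 and MRPS18B below 0 at 18 h.

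The 10 nM comparisons at the 2 times use separate libraries. Of the 30 genes that rose at 6 h, 12 also rose at 18 h, which is 40% of the first list and 85.7% of the 14 genes that rose at 18 h. Over all genes tested the same overlap was 57.3% of those raised at 6 h and 68.2% of those raised at 18 h. MRPS2 was the 1 member called higher at 6 h and lower at 18 h: it was at 61.9 and 60.3 CPM with 10 nM and 47.5 and 45.2 CPM with vehicle at 6 h, and at 36.7 and 38.0 CPM with 10 nM and 44.6 and 46.6 CPM with vehicle at 18 h. Of the 74 genes, 61 (82.4%) had a lower log2 fold change at 18 h than at 6 h, beside 49.1% of all genes tested. Across the 74 genes the fold changes at the 2 times had a Pearson r of 0.69 and a Spearman rho of 0.57, beside 0.77 and 0.66 over all genes tested, a description across genes that share the libraries of each time.

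Other genes of the mitochondrial translation system were set beside these, with 22.6% of all genes tested called higher and 19.4% called lower at 6 h. With 28.6%, 29.6% and 26.7% called higher, the next 3 lists lay near that share. At 6 h, 2 of 7 mitoribosomal proteins under other symbols rose with 10 nM, AURKAIP1 by 0.31 and ICT1, a release factor built into the large subunit, by 0.23 (log2), and 0 fell. Of 27 assembly factors 8 rose and 2 fell. They included the GTPase NOA1 (0.58 ± 0.08 SE) and the ribosomal RNA methyltransferases FTSJ2 (0.69 ± 0.11) and NSUN4 (0.59 ± 0.10). METTL15, another ribosomal RNA methyltransferase, went the other way, at 10.7 and 10.6 CPM with 10 nM and 19.4 and 20.4 CPM with vehicle (-0.91 ± 0.12, adjusted p = 0.00039). Of 15 translation factors 4 rose and 0 fell. TUFM, the elongation factor that brings transfer RNA to the ribosome, stood at 209 and 239 CPM with 10 nM and at 155 and 161 CPM with vehicle (0.50 ± 0.08), and TSFM, its exchange factor, rose by 0.49. MTRF1L, a release factor, and MRRF, the recycling factor, rose by 0.46 and 0.31.

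Of 14 genes for mitochondrial DNA and RNA maintenance, 8 (57.1%) rose and 0 fell with 10 nM at 6 h. The shares over all genes tested were 22.6% higher and 19.4% lower. C10orf2, the helicase Twinkle, stood at 46.2 and 39.9 CPM with 10 nM and at 19.6 and 14.8 CPM with vehicle (log2 fold change 1.32 ± 0.18 SE, adjusted p = 0.00046). TFB2M, a mitochondrial transcription factor, stood at 27.7 and 25.6 CPM with 10 nM and at 14.2 and 13.9 CPM with vehicle (0.92 ± 0.09, adjusted p = 6.9e-05). Groups overlapped in neither gene. ELAC2, which cuts mitochondrial transfer RNA precursors, rose by 0.59 and SSBP1, which binds single-stranded mitochondrial DNA, by 0.51. TFAM, which packages mitochondrial DNA and starts its transcription, was at 87.7 and 80.5 CPM with 10 nM and 74.1 and 79.9 CPM with vehicle (0.13 ± 0.08, adjusted p = 0.24). Messengers of the 13 mitochondrially encoded proteins, which the mitoribosome translates, had a median log2 fold change of -0.15 with 0 called by edgeR and 0 at an unadjusted p under 0.05. All 13 fold changes were below 0. In replicates 1 and 3 their sum was 71125 and 95716 CPM with 10 nM and 80114 and 104132 CPM with vehicle. Replicates differed more than groups, so this test does not show these messengers to be unchanged.

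Of 9 regulators of nuclear genes for mitochondria, 5 (55.6%) rose and 1 (11.1%) fell with 10 nM at 6 h. Over all genes tested 22.6% were called higher and 19.4% lower. ESRRA, a nuclear receptor of energy metabolism, was at 54.3 and 56.6 CPM with vehicle, 75.3 and 81.3 CPM with 100 pM and 149 and 162 CPM with 10 nM, so its doses were separated (1.49 ± 0.09 SE for 10 nM, adjusted p = 7.2e-06). MYC was at 32.8 and 31.8 CPM with vehicle, 39.97 and 24.4 CPM with 100 pM and 121 and 94.1 CPM with 10 nM (1.73 ± 0.33, adjusted p = 0.0033). Its 100 pM libraries lay on either side of vehicle. The coactivators PPARGC1B (1.84 ± 0.41) and PPRC1 (0.84 ± 0.18) also rose. PPARGC1A, the other coactivator of the list, had its lowest log2 fold change, -1.88, and was not called. It is named here after its value was seen. GABPB1 (0.57 ± 0.13) rose while its DNA-binding partner GABPA (-0.30 ± 0.11, adjusted p = 0.047) fell, and YY1 (0.11 ± 0.07) and NRF1 (0.46 ± 0.20) were not called, 4 genes named here after their values were seen.

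At 18 h these lists had fewer calls with 10 nM, beside 19% of all genes called higher and 15.2% called lower. Higher and lower calls were 1 and 0 of 7 for the other mitoribosomal proteins, 1 and 1 of 27 for assembly factors, 2 and 0 of 15 for translation factors and 3 and 1 of 14 for DNA and RNA maintenance. Of the regulators, ESRRA (0.82 ± 0.09 SE) and MYC (0.99 ± 0.33, adjusted p = 0.047) were still higher, and PPRC1 was at 67.2 and 58.4 CPM with 10 nM and 83.1 and 67.8 CPM with vehicle and not called. Of the 76 tested cytosolic ribosomal proteins, which build the ribosome of the cytosol, 2 rose and 0 fell at 6 h (RPL36A and RPS26). That stood beside 22.6% and 19.4% of all genes at 6 h. At 18 h 3 rose and 1 fell, and the medians at 6 h and 18 h were 0.03 and -0.05.

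**Figure D5:**
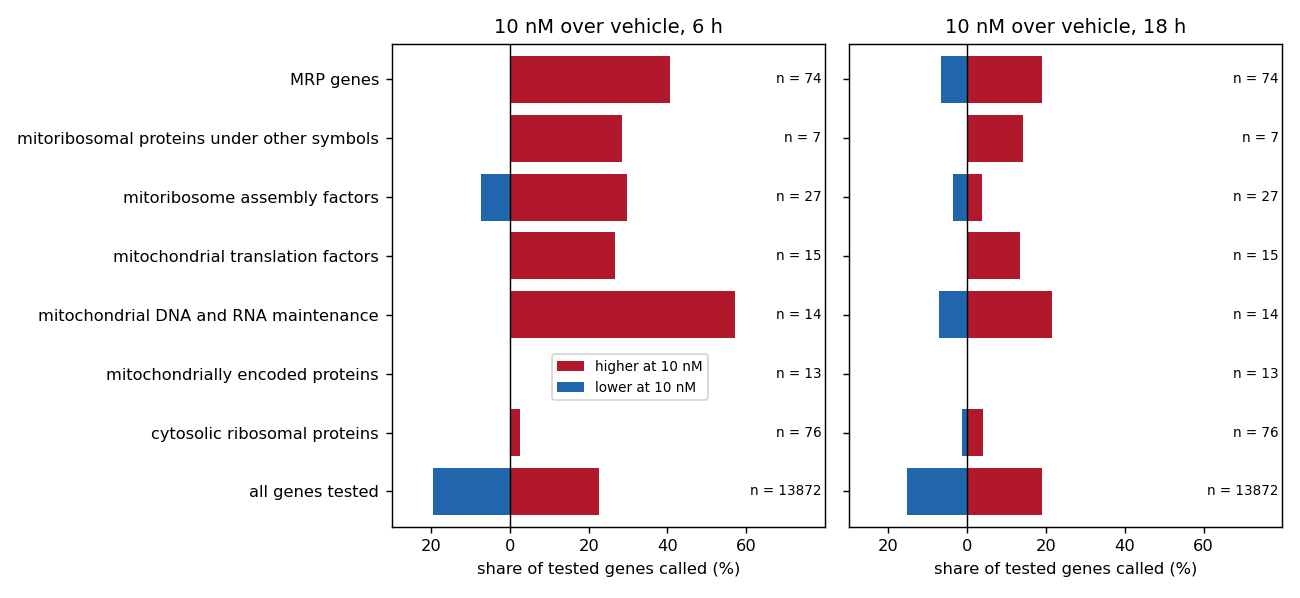
Share of tested genes called by edgeR with 10 nM against vehicle at 6 h (left) and 18 h (right), higher to the right of 0 and lower to the left, for each list and for all genes tested, with the number tested at the right. At 6 h 40.5% of MRP genes were called higher, beside 22.6% of all genes, and at 18 h 18.9%, beside 19%.

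MRPL30 and MRPS24 could not be tested. MRPL30 had 0 or 1 read in every library and MRPS24 had 0 to 9 reads. In the reference annotation 77.0% of the exon bases of MRPS24 are shared on the same strand with the readthrough gene URGCP-MRPS24, which has its own row in the table. The part of the counting method in these low counts was not tested.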

How the data were processed

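Total RNA of T47D cells was sequenced from Nextera libraries, per the labels. The authors deposited 1 table of raw counts of reads per gene symbol, made with STAR on hg19, per the submitters' processing notes, which also name DESeq2 without a role. The sources used here do not give versions, the counter, its annotation or its strand setting. All 12 columns were used.

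The deposited counts were analysed in R 4.3.3 with DESeq2 1.42.0, limma 3.58.1 and edgeR 4.0.16. The function filterByExpr kept genes over the 6 groups (13872 of 20114), libraries were scaled by TMM, and 1 edgeR quasi-likelihood fit (robust, 6 residual degrees of freedom) with a coefficient for each group gave every comparison. P-values were adjusted by Benjamini-Hochberg over all genes tested. CPM values are TMM-scaled. Alternatives were DESeq2, DESeq2 size factors, no filter on low counts, removal of the 13 mitochondrially encoded genes, each time alone, a block on replicate number and leaving out each library. Simulated data for 13673 genes took each gene's mean and spread from all 12 libraries, with changes put into the 10 nM 6 h libraries. In 10 nM against vehicle at 6 h edgeR recovered 11.9% of 1.5-fold, 40.3% of 2-fold and 90.9% of 4-fold changes with 3 false calls.

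The members and lists were chosen with earlier results of these data known. In each dose comparison the 8 largest called rises and falls were named, where the average log2 CPM reached 2, and the 5 largest in time comparisons. MRPL12, MRPS12, MRPS6, MRPS18A, MRPS18B, MRPS18C, MRPS30, MRPS36, MRPL41, MRPL45, MRPL23, MYC, TFAM, PPRC1, the members of highest and lowest level, up to 4 called genes of each other list and annotated neighbours of named members were eligible too. Symbols of all 76 members matched the GENCODE reference annotation (GRCh38), used for lengths, overlaps and neighbours only, since the counts are on hg19. Promoters come from RefSeq (GRCh38.p14).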

Additional observations from a re-analysis of the deposited data

Results flagged for a closer look

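For 10 mitoribosomal protein genes the 10 nM response at 18 h differed from that at 6 h in a test of the difference itself (edgeR, adjusted over all genes tested). All 10 differences were negative (13.5% of the 74 tested), beside 5.99% of all genes called negative and 4.55% called positive. The log2 difference, 18 h minus 6 h, was -0.82 for MRPL14, -0.81 for MRPS12, -0.71 for MRPL41, -0.69 for MRPS2, -0.65 for MRPS23, -0.52 for MRPL38, -0.51 for MRPS34, -0.44 for MRPS7, -0.44 for MRPL49 and -0.42 for MRPL17. In MRPL41 the 6 h fold change was 0.16 and not called, so the difference came with a fall at 18 h. In MRPS2 a called rise of 0.40 at 6 h stood beside a called fall of -0.29 at 18 h. The other genes had a called rise at 6 h. DESeq2 called 15 such differences among the members, and its share over all genes is not given here. Without vehicle 6 h replicate 3 edgeR called 0 of the 10. With 2 libraries in each group no library could be tested for standing apart from its group.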

How the results depend on the processing

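No called log2 fold change of a named gene turned its sign, and 99 values lost and 19 gained a call under some alternative. For 10 nM against vehicle at 6 h 25 members were called with that time alone and 45 with the replicate block, the lowest and highest of the alternatives that left out no replicate. Labels do not say what replicate numbers share, and same-numbered libraries deviated together (r of 0.464 to 0.677, median 0.558, over 15 pairs of groups). With a block on replicate number the biological coefficient of variation was 0.0678 against 0.163 without it, and calls, higher and lower, were 44 and 1 for 10 nM at 6 h, 1 and 0 for 100 pM at 6 h, 46 and 0 for 10 nM against 100 pM at 6 h, 21 and 9 (30 in all) for 10 nM at 18 h, 5 and 8 (13) for 100 pM at 18 h, 18 and 3 (21) for 10 nM against 100 pM at 18 h, 1 and 41 (42) for 18 h against 6 h in 10 nM, 3 and 7 (10) for the same in 100 pM and 1 and 20 (21) for the difference of the 10 nM responses. For 100 pM at 18 h the members called with the block thus held more falls than rises, where the fit without the block had 2 and 0. The shares of all genes called under the alternatives are not given here. These counts therefore have no background beside them, and a larger count need not be particular to the members. With the block MRPS18A (0.27, adjusted p = 0.028) and MRPS30 (0.27, adjusted p = 0.0053) were called higher with 10 nM at 6 h. With each time fitted alone calls were 9 for 10 nM at 18 h, 0 for 100 pM at 18 h and 4 between the doses at 18 h. DESeq2 gave 1 for 100 pM at 6 h, 5 for 100 pM at 18 h and 1 for 18 h against 6 h in 100 pM. For 100 pM at 18 h DESeq2 size factors gave 4 and no filter gave 1. The causes of these shifts were not tested.

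Leaving out 1 library gave 20 to 23 calls for 10 nM and for 10 nM against 100 pM at 6 h, 10 to 12 for 10 nM at 18 h, 0 to 0 for 100 pM at 18 h, 4 to 8 between the doses at 18 h, 13 to 15 for 18 h against 6 h in 10 nM and 0 to 4 for the difference of the 10 nM responses. The lone library of a group was then assumed to vary like the others. In simulated counts with 2 libraries a group, 11.9% of 1.5-fold changes were recovered. Few genes were changed there (67 of 13673 by 1.5-fold), drawn at any level. In the real 10 nM comparison at 6 h, 22.6% of all genes were called higher and 19.4% lower. The adjusted cutoff is thus stricter in the simulation, and its rate does not carry over to the members. Called members rose by as little as 1.18-fold with 10 nM at 6 h. A member without a call is still not shown to be unchanged.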

Other observations

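In the reference annotation 18 members start within 1000 bases of a protein-coding gene on the other strand, in a head-to-head arrangement. Of the 17 tested members whose neighbour was tested, 4 neighbours (23.5%) were higher and 1 (5.88%) was lower with 10 nM at 6 h, beside 22.6% and 19.4% of all genes tested, so the higher share was at the background. TCP1, a subunit of the cytosolic chaperonin, starts 63 bases from MRPL18 and was higher at 6 h (0.53 ± 0.09 SE) and at 18 h (0.43 ± 0.09), beside 0.44 and 0.43 for MRPL18. PSMA2, a proteasome subunit next to MRPL32, was higher by 0.27 at 6 h and 0.37 at 18 h. PNPLA7, 665 bases from MRPL41, was lower at both times, at -0.69 ± 0.09 at 6 h and -1.68 ± 0.09 at 18 h, where MRPL41 was at 0.16 and -0.55. The neighbour of MRPL43 is C10orf2, a pair named here after its values were seen: C10orf2 was at 1.32 ± 0.18 and MRPL43 at 0.03 at 6 h. Whether a pair shares regulation was not tested.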
